A study of Mus musculus with 3 samples.

Results

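This report describes CD8 T cells that carried transcripts of the checkpoint receptors Pdcd1, Lag3 or Havcr2 in B16-F10 tumors. A barcode was taken as such a cell when it had 200 or more genes, at most 20% mitochondrial UMIs (unique molecular identifiers, 1 per captured RNA molecule) and under 0.5% of UMIs from the melanoma genes Dct and Pmel. It also needed UMIs of at least 2 of the 6 genes Cd3e, Cd3d, Cd3g, Trac, Trbc1 and Trbc2, a UMI of Cd8a or Cd8b1, no UMI of Cd4, Foxp3 or Ncr1, at least 1 UMI of Pdcd1, Lag3 or Havcr2, and not UMIs of both Mki67 and Top2a. Of 27374 barcodes in all, 204 met these conditions and are called receptor-positive below. Another 260 CD8 T cells met every condition except the one on receptors and are called receptor-negative.

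B16-F10 is a melanoma line of the C57BL/6 mouse, and the tumors grew under the skin of C57BL/6J mice aged 6 to 8 weeks. Tumor cells carried either a control short hairpin RNA (shCtrl, 1 library) or a hairpin against Mib2 (shMib2, 2 libraries), an E3 ubiquitin ligase. The mice themselves were not labelled as modified, so the T cells came from the host and only the implanted tumor cells carried a hairpin. Tumors of 3 mice were pooled per group, and no label says whether the shMib2 libraries came from separate mice, so the spread between them may be technical. The comparison asked whether depleting Mib2 in the tumor went with a different set of infiltrating cells. Mib2 RNA did not check the labels: in melanoma barcodes it was 2.49 CPM (UMIs per 1000000 UMIs of the group, 95% exact Poisson interval 2.29 to 2.70) in the library labelled shCtrl, 3.13 (2.87 to 3.39) in the library labelled shMib2 replicate 1 and 2.66 (2.43 to 2.91) in the library labelled shMib2 replicate 2. It was not lower in either library labelled shMib2, so each difference between libraries below is a difference between labels.

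CD8 T cells recognize peptides on MHC class I and kill the cells that present them, through perforin and granzymes. PD-1 (Pdcd1), LAG-3 (Lag3) and TIM-3 (Havcr2) are inhibitory receptors that T cells put on their surface after their antigen receptor is engaged. In tumors, where antigen persists, cells that keep them are described along a path from stem-like cells, which depend on the transcription factor TCF-1 (Tcf7), to terminally exhausted cells, which keep PD-1 and gain TIM-3, with TOX as a central regulator. A single activated cell also carries these receptors for a time, so the transcripts alone do not name a state.

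On mm10 (GENCODE vM21), Pdcd1 lies at chr1:94038305-94052553 on the minus strand, Lag3 at chr6:124904361-124911705 on the minus strand and Havcr2 at chr11:46454935-46481255 on the plus strand. All are protein coding. Among the genes that rose in the receptor-positive cells, and rose again among those with Havcr2, are the killing genes Gzmb and Prf1 and the chemokine gene Ccl3. The 250 bases upstream of their RefSeq start sites (GRCm38.p6) are shown because these genes moved together, with capitals marking every match of TGANTCA (the AP-1 motif) or TGTGGT (the core RUNX motif) on either strand.
Gzmb, chr14:56262335-56262584, minus strand: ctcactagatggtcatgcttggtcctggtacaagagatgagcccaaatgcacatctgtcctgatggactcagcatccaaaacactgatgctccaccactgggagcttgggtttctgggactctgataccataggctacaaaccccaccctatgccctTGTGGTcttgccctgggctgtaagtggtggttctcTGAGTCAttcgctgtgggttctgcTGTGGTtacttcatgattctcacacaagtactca
Prf1, chr10:61297586-61297835, plus strand: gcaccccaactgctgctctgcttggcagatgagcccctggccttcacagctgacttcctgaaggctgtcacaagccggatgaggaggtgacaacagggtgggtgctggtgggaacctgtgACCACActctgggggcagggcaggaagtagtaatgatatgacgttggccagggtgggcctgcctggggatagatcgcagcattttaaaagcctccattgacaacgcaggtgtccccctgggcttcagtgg
Ccl3, chr11:83649379-83649628, minus strand: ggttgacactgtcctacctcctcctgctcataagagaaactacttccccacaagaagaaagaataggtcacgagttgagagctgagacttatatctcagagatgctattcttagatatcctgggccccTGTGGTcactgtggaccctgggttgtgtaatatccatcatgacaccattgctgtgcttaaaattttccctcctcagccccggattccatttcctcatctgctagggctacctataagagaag
Gzmb held 1 match of the AP-1 letters and 2 of the RUNX letters, and Prf1 and Ccl3 held 1 match of the RUNX letters each. Of 32851 promoter windows of the same length, 6.75% held the AP-1 letters and 14.0% the RUNX letters. A match is a description of these letters and not a binding site.

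Values per library are given for shCtrl first and then for shMib2 replicates 1 and 2. Barcodes numbered 9558, 9428 and 8388. Receptor-positive cells numbered 5, 79 and 120, and receptor-negative cells 19, 82 and 159. Receptor-positive cells were deeper, with median UMI counts of 3702, 2544 and 3698 against 1712, 1809 and 2917 in the receptor-negative cells. Depth therefore moved with the condition on receptors in all 3 libraries. Pairs of libraries shared 30, 25 and 20 barcodes, none of them receptor-positive in both, and 1 receptor-positive barcode of shMib2 replicate 2 was also listed in replicate 1. Simulated doublets predicted 2 of the 204 cells as doublets, but 36 of them (2, 12 and 22 per library) carried 3 or more UMIs of the marker list of B cells, mononuclear phagocytes, dendritic cells, fibroblasts or erythrocytes, up to 674 in a single barcode. Among receptor-negative cells the number was 1, 6 and 26. Results that rest on such cells are given with and without them.

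The rule required a UMI of Cd8a or Cd8b1 in every cell, so their counts are a description and do not test the name. Of the 204 cells, 185 had a UMI of Cd8b1, 164 of Cd8a and 145 of both. By the rule, Cd4, Foxp3 and Ncr1 were at 0. Of 8 mononuclear phagocyte markers, Adgre1, Itgam, C1qa and C1qc had no UMI, and the whole list summed to 0, 5 and 27 UMIs per library, from Lyz2, Cd68, C1qb and Csf1r. Of 5 dendritic cell markers Flt3 had no UMI, and the list summed to 0, 6 and 9 UMIs. Gamma delta T cell markers summed to 1, 16 and 55 UMIs, most of them Tcrg-C2, and NK cell markers to 1, 5 and 9. Melanoma transcripts were at 274, 536 and 474 CPM over 6 markers against 1126, 945 and 631 in the receptor-negative cells. Mlana was lower in the receptor-positive cells by edgeR. Dct, which with Pmel set the melanoma limit of the rule, is described with no test (log2 fold change -1.02). The part of free tumor RNA in the other differences was not tested.

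Of the 24 CD8 T cells of shCtrl, 5 were receptor-positive, a share of 20.8% with a 95% Wilson interval from 9.24 to 40.5. The shares were 49.1% (41.5 to 56.7) of 161 CD8 T cells for replicate 1 of shMib2 and 43.0% (37.3 to 48.9) of 279 for its replicate 2. Both shMib2 shares lay above the shCtrl interval, although the intervals of shCtrl and shMib2 replicate 2 overlapped. As a share of gated T cells they were 5.68%, 12.9% and 12.4%, and as a share of all barcodes kept they were 0.0567%, 0.922% and 1.65%. Melanoma barcodes, which enter only the last of these denominators, numbered 8175, 6658 and 4180. With 1 library against 2, an exact permutation test cannot give a p below 0.333, so the shares were not tested, and the intervals cover counting error only.

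Depth changed the size of the share more than its order. When each CD8 T cell was thinned to 1000 UMIs before the condition on receptors was applied, 13% (3 of 23), 34.0% (50 of 147) and 28.6% (79 of 276) kept a receptor UMI, and 1, 14 and 3 shallower cells were left out. With cells that carried RNA of another cell type left out, the shares were 14.3%, 46.9% and 42.4%, with 3 receptor-positive cells in shCtrl. The receptors were at 0 UMIs in the B cells of every library, a type that should lack them, although these barcodes were shallower, with median UMI counts of 843, 804 and 1398.5. B cells were picked by UMIs of at least 2 B cell marker genes and none of the 6 T cell genes.

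**Figure D1:**
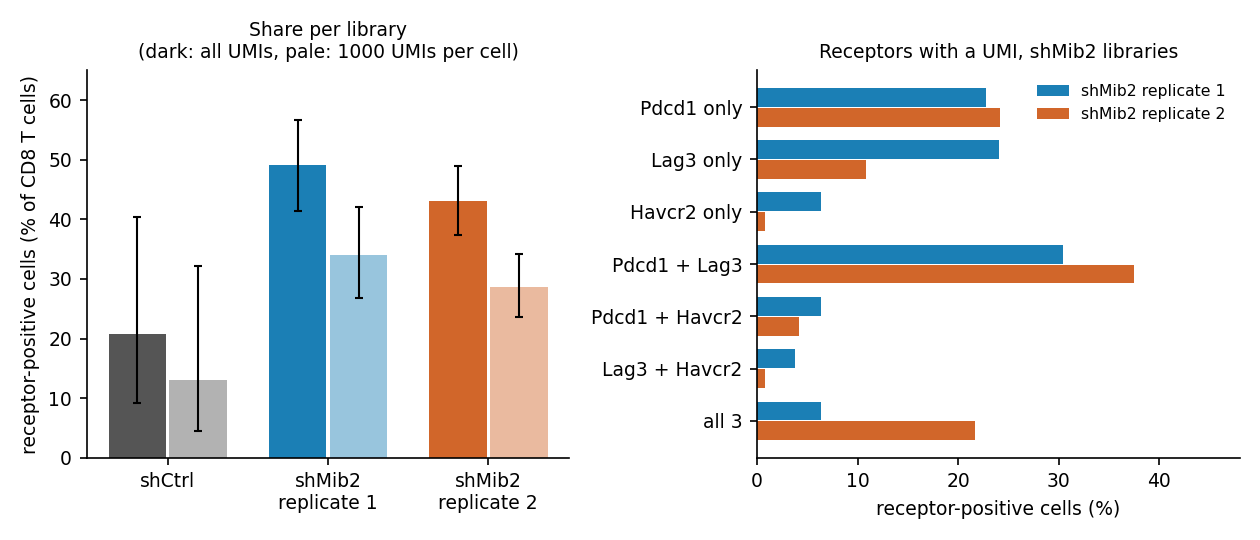
Left, receptor-positive cells as a percent of CD8 T cells in each library, with all UMIs (dark) and after thinning to 1000 UMIs per cell (pale), with 95% Wilson intervals as error bars. Right, percent of receptor-positive cells of the shMib2 libraries by which receptors had a UMI: the all-3 bar was 6.33% in replicate 1 and 21.7% in replicate 2.

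The receptors themselves chose the cells, so their levels are a description with no test. Pdcd1 had a UMI in 161 of the 204 cells, Lag3 in 139 and Havcr2 in 53. The summed level of Pdcd1 was 384, 301 and 438 CPM, that of Lag3 was 274, 394 and 358, and that of Havcr2 was 164, 85.3 and 89.1, with 3 to 7 UMIs of each behind the shCtrl values. Pdcd1 and Lag3 together without Havcr2 was the most frequent pair, in 69 cells, and Havcr2 alone was seen in 6. Of the 53 cells with Havcr2, 47 also had Pdcd1 or Lag3. A single receptor was detected in 88 cells, a pair in 83 and all 3 in 33.

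Cells with all 3 receptors made up 2 of 5 in shCtrl, 5 of 79 (6.33%, 2.73 to 14.0) in shMib2 replicate 1 and 26 of 120 (21.7%, 15.2 to 29.9) in shMib2 replicate 2. The shMib2 libraries differed beyond their counting intervals, and they also differed in depth, with median UMI counts of 2544 and 3698. At 1000 UMIs per cell, 0 of 50 and 1 of 79 cells kept all 3 receptors, so no difference was detectable at that depth.

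Exactly 1 receptor UMI was found in 48 of the 204 cells, 2 in 44 and 3 or more in 112, with a maximum of 13. Just inside the melanoma limit the highest cell had 0.235% of UMIs from Dct and Pmel, and just outside it the lowest of 10 left out had 1.14%. The highest mitochondrial share inside was 11.1%, against 24.6% for the lowest of 2 left out. The condition on Mki67 and Top2a alone left out 77 cells with receptor UMIs, and 58 of the 204 cells had a UMI of one of these genes. Cd4, Foxp3 or Ncr1 alone left out 16, and the lack of Cd8a and Cd8b1 UMIs alone left out 69.

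To describe what else these cells carried, UMIs were summed over the receptor-positive and over the receptor-negative cells of each library, and the 6 sums were compared by edgeR's quasi-likelihood test with library as a block and Benjamini-Hochberg adjustment. Receptor-positive cells had more Tnfrsf9, Ccl3, Prf1 and Gzmb, and less Klf2, Satb1 and Tcf7, which belong to naive and resting T cells. Of 2840 genes tested, 123 rose (4.33%) and 249 fell (8.77%) in the receptor-positive cells, and 275 (9.68%) and 433 (15.2%) had an unadjusted p under 0.05. Pdcd1, Lag3 and Havcr2 were left out. Without shCtrl, 211 rose and 309 fell. Leaving out shMib2 replicate 1 gave 99 and 138, and leaving out shMib2 replicate 2 gave 66 and 134. With the receptor-negative cells that carried Ccr7 or Lef1, genes of naive and central memory cells, left out, 82 of 2395 genes rose and 129 fell. With barcodes carrying RNA of another cell type left out, 179 of 2097 rose and 283 fell, and 333 of the 372 calls could be tested there, of which 316 passed again.

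**Figure D2:**
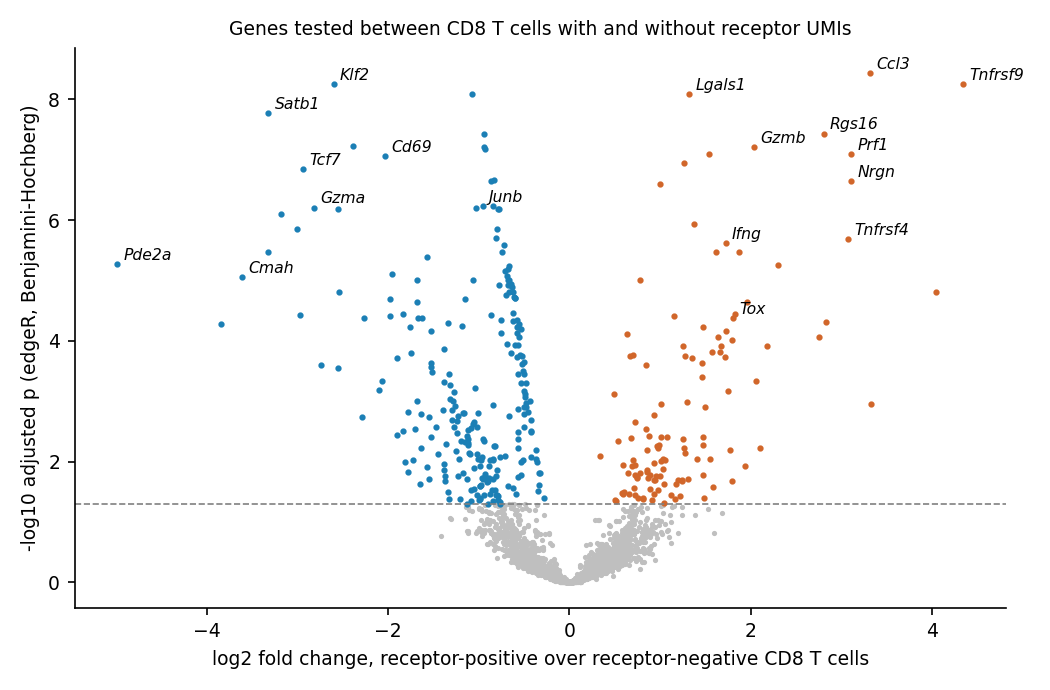
Each point is 1 of 2840 genes, with the log2 fold change of receptor-positive over receptor-negative CD8 T cells on the x axis and -log10 of the edgeR adjusted p on the y axis (dashed line, 0.05). Orange points rose (123), blue points fell (249) and gray points did not pass; Tnfrsf9 lies farthest right of the labelled genes and Pde2a farthest left.

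Among costimulatory receptors, 2 members of the tumor necrosis factor receptor family rose. Tnfrsf9, which encodes 4-1BB, was at 603, 142 and 306 CPM in receptor-positive cells and at 28.1, 11.7 and 9.68 in receptor-negative cells. Its values did not overlap (log2 fold change 4.35 ± 0.38 SE, edgeR adjusted p = 5.54e-09, higher in 3 of 3 libraries). Tnfrsf4, which encodes OX40, was at 713, 134 and 130 against 28.1, 35.2 and 7.75 (3.08 ± 0.40, adjusted p = 2.04e-06). They were the only genes of the costimulatory list that rose, of 10 tested. Cd5, an inhibitor of antigen receptor signaling, was the only one that fell (-0.79), and it lost its call in 11 of 14 alternatives. Regulatory T cells of the same libraries (2, 23 and 41 cells) had Tnfrsf4 at 1177, 905 and 1270.1 CPM, above the receptor-positive CD8 T cells in every library. The shCtrl value rests on 2 such cells.

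Killing genes rose unevenly. Gzmb, the protease that triggers death of the target cell, was at 164, 910 and 1281 CPM against 56.3, 282 and 198 (2.04 ± 0.21, edgeR adjusted p = 6.10e-08). The receptor-positive cells of shCtrl, with 3 UMIs of Gzmb, lay below the receptor-negative cells of both shMib2 libraries, so the groups overlapped across libraries although each library went the same way. Prf1, the pore-forming protein that lets granzymes enter, was at 110, 252 and 456 against 56.3, 29.3 and 36.8 (3.11 ± 0.33, adjusted p = 8.05e-08), with no overlap. Nkg7, a cytotoxic granule protein, rose by 0.78 on the log2 scale.

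Gzma went the other way. This granzyme was at 0, 130 and 48.1 CPM in receptor-positive cells and at 141, 346 and 596 in receptor-negative cells (-2.81 ± 0.34, edgeR adjusted p = 6.18e-07), and at 3715, 5126 and 5436 in NK cells, barcodes with Ncr1 and without CD3 genes. Of 9 tested genes of the killing list, 3 rose, 1 fell and 5 did not pass. A UMI of Gzmb was present in 60%, 59.5% and 60% of receptor-positive cells, in 5.26%, 15.9% and 18.9% of receptor-negative cells and in no B cell of any library. At 1000 UMIs per cell, with the groups kept as set at full depth, the shares were 0%, 55.3% and 37.5% against 0%, 11.3% and 12.8%.

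Inflammatory chemokines and interferon gamma were higher. Ccl3, which attracts leukocytes, had 0 UMIs in both groups of shCtrl, and was at 443 and 962 CPM in the receptor-positive cells of the shMib2 libraries against 29.3 and 91.0 (3.32 ± 0.27, edgeR adjusted p = 3.68e-09). Ccl4, its close relative, was at 164, 1609 and 919 against 197, 317 and 300.2 (1.62 ± 0.22, adjusted p = 3.38e-06), with the shCtrl pair (3 and 7 UMIs) in the opposite order. Ifng, the main effector cytokine of these cells, was at 274, 398 and 725 against 84.4, 93.9 and 198 (1.73 ± 0.23, adjusted p = 2.42e-06). For tests in cells thinned to 1000 UMIs, here and below, the groups were set anew by the receptor UMIs left. A cell that lost its receptor UMIs then counted as receptor-negative, so the groups changed along with depth. In these tests Ccl3 (0.37, edgeR adjusted p = 0.66) and Ifng (0.71, edgeR adjusted p = 0.22) did not pass. Of 7 tested cytokine and chemokine genes, 4 rose and none fell. Ccl5 rose by 0.50 and was near equal (0.08, edgeR adjusted p = 0.829) once receptor-negative cells with Ccr7 or Lef1 were left out.

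Regulators tied to exhaustion and effector differentiation rose in part. Tox was at 219, 256 and 246 CPM against 56.3, 47.0 and 69.7 (1.81 ± 0.29, edgeR adjusted p = 4.25e-05), with no overlap. Id2 (1.25), Bhlhe40 (1.28), Nr4a2 (0.86, higher in 2 of 3 libraries) and Batf (0.98) also rose, and of 9 tested genes of this list 4 did not pass. In cells thinned to 1000 UMIs, 1 of 5 tested genes of this list passed. Bhlhe40 (0.82, edgeR adjusted p = 0.134) and Nr4a2 (0.73, edgeR adjusted p = 0.147) did not pass there. Nr4a2 did not pass by DESeq2 either (0.83, adjusted p = 0.0957). Among other checkpoint receptors, Ctla4 rose by 1.57 (adjusted p = 0.000155), from 28.1, 129 and 63.9 to 164, 289 and 290.4 CPM, and did not pass in thinned cells (0.90, adjusted p = 0.13) or without shMib2 replicate 2 (1.12, adjusted p = 0.059). Regulatory T cells, which carry CTLA-4 constitutively, had 428, 995 and 1006, with 2 cells behind the shCtrl value. Cd160 fell (-0.90, adjusted p = 0.0499) and lost its call in 8 of 13 alternatives. The other 2 of 4 tested, Vsir and Cd96, did not pass, and the remaining 8 genes of that list were too low to test.

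Genes that hold T cells in the naive, stem-like or circulating state fell together: 11 of 14 tested fell and none rose, with a median log2 fold change of -2.02 against -0.01 over all genes tested. Klf2, the factor that keeps T cells quiescent and lets them leave tissue, was at 110, 81.3 and 121 CPM against 844, 493 and 558 (-2.60 ± 0.23, edgeR adjusted p = 5.54e-09). Tcf7, which encodes TCF-1, was at 0, 20.3 and 57.0 against 338, 252 and 279 (-2.94 ± 0.32, adjusted p = 1.42e-07). The groups did not overlap for either gene. Satb1 (-3.32), a chromatin organizer, Lef1 (-3.18), the partner of TCF-1, and Klf3 (-3.33) fell likewise. With receptor-negative cells carrying Ccr7 or Lef1 left out, 9 of 10 tested genes of this list fell and Ccr7 rose, with a median of -1.88. That alternative removes cells by genes of the list, so it is no independent measure of them.

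**Figure D3:**
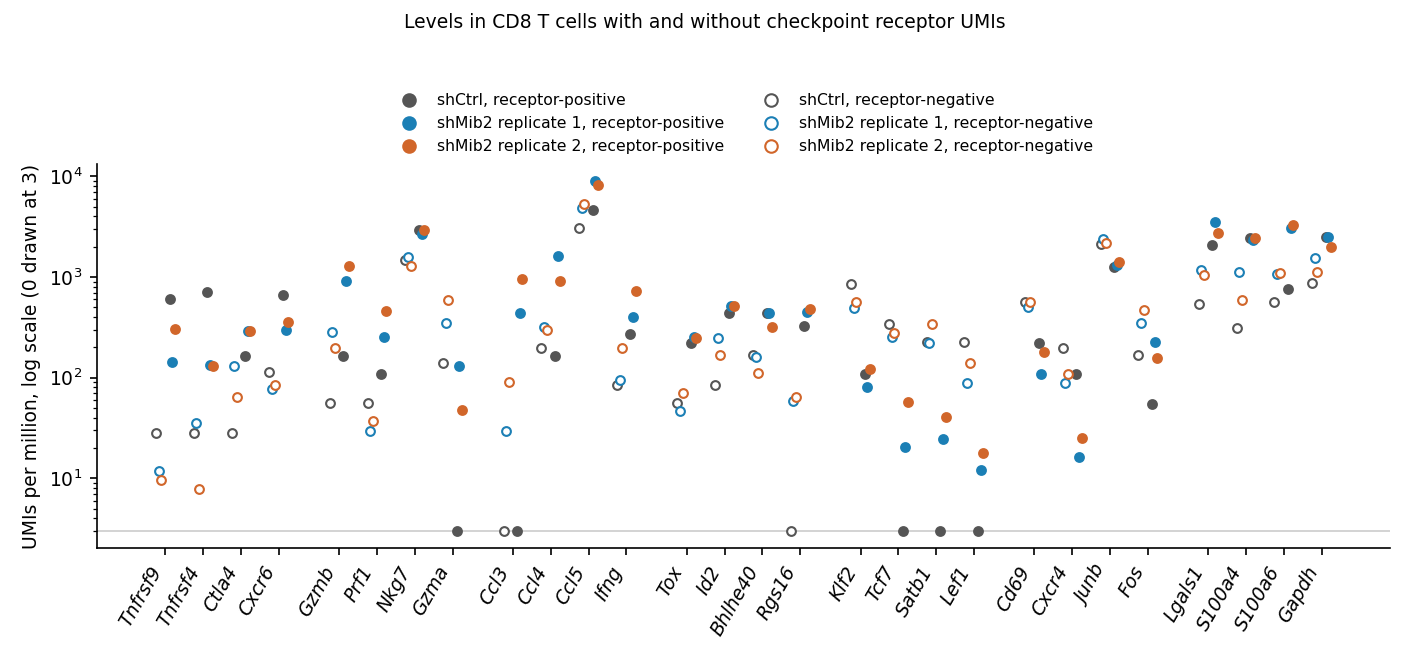
UMIs per 1000000 (CPM, log axis, 0 drawn at 3) of 28 genes, in receptor-positive (filled) and receptor-negative (open) CD8 T cells of each library, grouped by role. Filled points lay above open points of the same library for Tnfrsf9, Prf1 and Tox, and below them for Klf2, Tcf7 and Cd69.

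Homing genes split. Cxcr6, the receptor for CXCL16 that marks resident and tumor-localized T cells, rose to 658, 297 and 358 CPM from 113, 76.3 and 85.2 (1.88 ± 0.25, edgeR adjusted p = 3.42e-06). Cd69, another residency marker and an early activation antigen, fell to 219, 110 and 178 from 563, 505 and 567 (-2.03 ± 0.22, adjusted p = 8.67e-08). Cxcr4 (-2.27), the receptor for CXCL12, and Itgb7 (-1.67), an integrin of gut homing, fell. Of 10 tested genes 2 rose and 4 fell, so the list had no single direction, with a median of 0.06.

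Immediate early genes were lower. Junb was at 1261, 1300 and 1401 CPM against 2139, 2365 and 2196 (-0.96 ± 0.12, edgeR adjusted p = 5.85e-07), and Fos (-1.38), Fosb (-1.28) and Jun (-1.29), which with Junb make up AP-1, fell too. Of 15 tested genes of the immediate early and heat shock list, 6 fell and 1, the heat shock gene Hspa1b, rose. Its near-identical copy Hspa1a can share its reads, so that value is uncertain.

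Among feedback genes of antigen receptor signaling, Rgs16, which limits chemokine receptor signaling, rose from 0, 58.7 and 63.9 to 329, 447 and 483 CPM (2.81 ± 0.28, edgeR adjusted p = 3.67e-08). Dusp2 fell by 0.53 on the log2 scale, and the other 13 of 15 tested did not pass. The call of Dusp2 was lost by DESeq2 (-0.52, adjusted p = 0.0686), in thinned cells, and without shMib2 replicate 1 or replicate 2. With barcodes carrying RNA of another cell type left out, 4 of 15 rose and 2 fell. Zap70 (0.88, edgeR adjusted p = 0.00684) and Nfkbia (-0.57, edgeR adjusted p = 0.000858) were among them. Of the receptors usually found on NK cells, Klrc1, which encodes NKG2A, rose by 1.20. It had 0 UMIs in the receptor-positive cells of shCtrl and 2 in its receptor-negative cells. Klrc1 did not pass with at least 50 UMIs over the sums (1.18, edgeR adjusted p = 0.115). Nor did it pass once receptor-negative cells carrying Ccr7 or Lef1 were left out (0.92, edgeR adjusted p = 0.142). Fcer1g fell (-0.84), a call lost in 9 of 14 alternatives. By DESeq2 0 of 7 genes of the NK receptor list passed. Among cytokine receptors Il2rb rose by 0.66, a call lost in 10 of 15 alternatives, and Ifngr1 fell (-1.01), a call lost in 1 of 15. Interferon targets mostly did not pass. Of 6 tested type I interferon genes none rose or fell (0 by DESeq2 as well, and 0 at an unadjusted p under 0.05). With barcodes carrying RNA of another cell type left out, 2 of 5 rose, Isg20 (0.99, edgeR adjusted p = 0.035) and Ifi27l2a (0.37, edgeR adjusted p = 0.037). Of 12 interferon gamma and MHC class I genes only Irf1 (-1.12) and Socs1 (-1.47) fell. By DESeq2 none of the 12 passed (Irf1 -1.07, adjusted p = 0.218, and Socs1 -1.36, adjusted p = 0.104). None passed by edgeR either once receptor-negative cells carrying Ccr7 or Lef1 were left out. Without barcodes carrying RNA of another cell type, 1 of 12 rose and 3 fell, Igtp (-0.97, edgeR adjusted p = 0.0148) among them.

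Among glycolysis genes, Gapdh was at 2467, 2471 and 1999 CPM against 873, 1526 and 1123 (0.67 ± 0.12, edgeR adjusted p = 0.000176), and 5 of 10 tested rose, Aldoa (0.72), Pkm (0.65) and Tpi1 (0.71, a call lost in 8 of 15 alternatives) among them, with none lower. In cells thinned to 1000 UMIs none of 9 glycolysis genes passed. By DESeq2 2 of 10 rose, and Pkm did not pass (0.66, adjusted p = 0.0668). With receptor-negative cells carrying Ccr7 or Lef1 left out, 2 of 10 rose by edgeR. In the S100, annexin and galectin list 7 of 10 rose, led by S100a4 (1.54), S100a11 (1.37), Lgals1 (1.32) and S100a6 (1.27), genes that activated and memory T cells raise. In thinned cells 4 of 10 still passed. Of 11 tested cell cycle genes, Hmgb2 (0.69) and Stmn1 (0.99) rose. Which genes of this list passed changed with the setting. Hmgb2 did not pass in thinned cells (0.32, edgeR adjusted p = 0.51). Neither gene passed without the library block (edgeR adjusted p = 0.0793 and 0.0698). Mcm5 passed with predicted doublets removed (1.30, edgeR adjusted p = 0.0476). The rule took out cells with both Mki67 and Top2a from both groups, so this list says little about dividing cells.

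Ribosomal protein genes were looked at after their values were seen. Of 79 tested, 69 fell and none rose, with a median log2 fold change of -0.56. In cells thinned to 1000 UMIs 42 of 79 fell, with a median of -0.41, and with receptor-negative cells carrying Ccr7 or Lef1 left out 30 of 79 fell, with a median of -0.35.

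**Figure D4:**
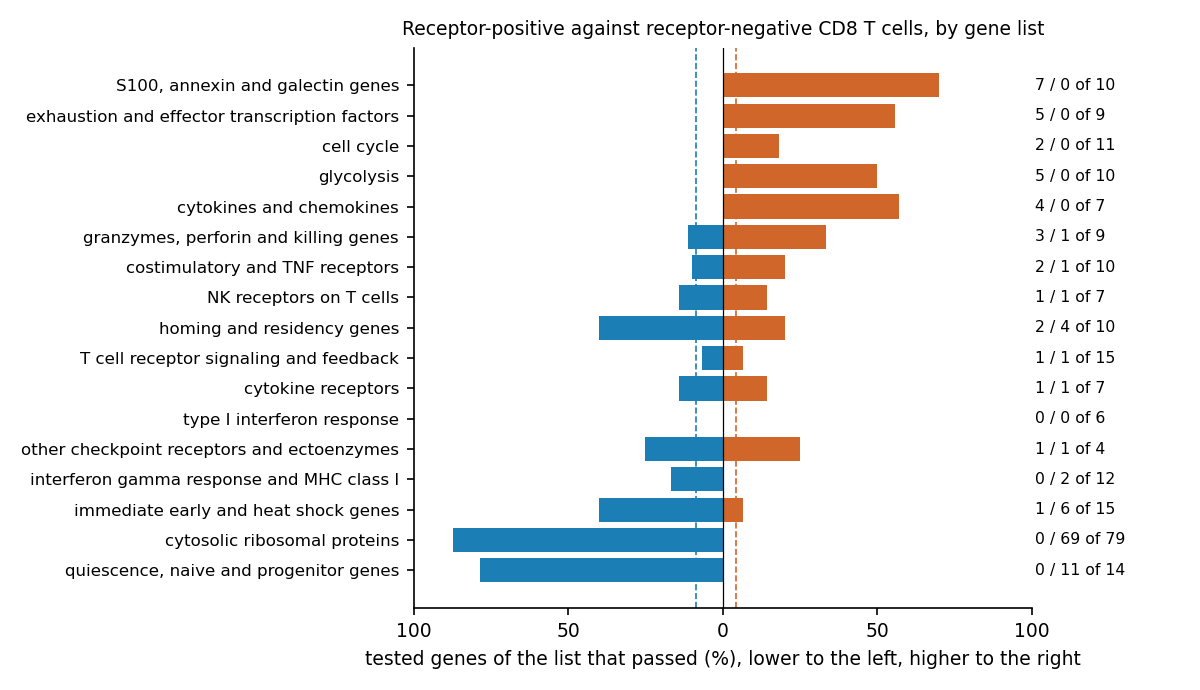
Percent of the tested genes of each list that rose (orange, right) or fell (blue, left) in receptor-positive against receptor-negative CD8 T cells, ordered by the median log2 fold change. Numbers at the right give genes higher, lower and tested, and dashed lines mark the percent of all genes tested that rose (4.33%) or fell (8.77%).

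Other genes with the largest changes, by the rule for named genes, belonged to none of these lists. Nrgn, a calmodulin-binding protein, was at 274, 106 and 230 CPM in receptor-positive cells and at 0, 23.5 and 19.4 in receptor-negative cells (3.11 ± 0.35, edgeR adjusted p = 2.24e-07). Sdcbp2 (3.33), Eea1 (2.75), an early endosome protein, Ier5l (2.30), Hilpda (2.19), which coats lipid droplets and is induced by hypoxia, Gpd2, the mitochondrial glycerol-3-phosphate dehydrogenase, and Cenpa (1.96), the centromeric histone, rose. Pde2a, a phosphodiesterase of cyclic nucleotides, had 0, 2 and 0 UMIs in receptor-positive cells and 3, 12 and 45 in receptor-negative cells. Cmah (-3.62), Txk (-2.56), a kinase of antigen receptor signaling, Sidt1 (-2.56) and Fam241a (-2.54) fell as well. Most of these genes rest on under 20 UMIs in the group where they were low.

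Markers of other cells were few in the test. Of the B cell markers, 2 could be tested and they went opposite ways. Ighm, an immunoglobulin heavy chain, was lower in receptor-positive cells (-1.02, edgeR adjusted p = 0.0361). Igkc, a light chain, was higher, at 932, 73.2 and 67.7 CPM against 28.1, 5.87 and 13.6, and a single shCtrl barcode carried 21 UMIs of B cell markers. Fibroblast markers were at 0, 3487 and 64.1 CPM in receptor-positive cells against 0, 47.0 and 935. Erythrocyte markers were at 219, 354 and 1438 CPM in receptor-positive cells against 197, 387 and 7026, and Klra7, an NK cell receptor gene, was lower in receptor-positive cells (-3.85). Their part in the other differences was not tested, but the counts without such barcodes are given above.

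The difference between receptor-positive and receptor-negative cells was then compared between labels. By an interaction term in edgeR, 0 of 2840 genes passed and 198 had an unadjusted p under 0.05. With 5 cells behind the shCtrl sum this does not show that the labels act alike.

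To see how these cells varied among themselves, those with and without a UMI of Havcr2 were compared in the shMib2 libraries (18 against 61 cells and 33 against 87). The library labelled shCtrl, with 2 and 3 cells, was left out. Cells with Havcr2 had more Ccl3, Gzmb, Ccl4 and Prf1 and no UMI of Ccr7. Of 2753 genes tested by edgeR, 5 rose (0.182%) and 13 fell (0.472%), and 80 (2.91%) and 92 (3.34%) had an unadjusted p under 0.05. The fit has 1 residual degree of freedom, and no gene passed with predicted doublets removed (67 higher and 81 lower at an unadjusted p under 0.05) or without the library block (49 and 69). DESeq2 called 2.

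Ccl3 was at 903 and 1930 CPM with Havcr2 and at 295 and 439 without (1.89 ± 0.20, edgeR adjusted p = 0.000214). Gzmb was at 1489 and 2620 against 725 and 557 (1.68 ± 0.22, adjusted p = 0.00108). Ccl4 was at 3898 and 1325 against 875 and 700 (1.48 ± 0.22, adjusted p = 0.00211), and Prf1 at 351 and 848 against 220 and 244 (1.35 ± 0.27, adjusted p = 0.0290). For all 4 genes the cells with Havcr2 were above the cells without it in both libraries, and these 4 passed again once barcodes with RNA of another cell type were left out. Gzmb and Prf1 were 2 of 11 tested genes of the killing list, and Ccl3 and Ccl4 were 2 of 8 tested cytokine and chemokine genes, and the others of both lists did not pass. In cells thinned to 1000 UMIs and grouped anew by the UMIs left, 0 of 5 tested genes of the killing list passed. There 1 of 5 tested cytokine and chemokine genes rose. Acta2, a smooth muscle actin, was the other gene that rose. With replicate 1 left out, the log2 fold change of Prf1 was 1.77 and that of Gzmb 2.21; with replicate 2 left out they were 0.62 and 0.98.

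Ccr7, the receptor that brings T cells to lymph nodes, had 0 UMIs in all 51 cells with Havcr2 and 57 UMIs in the 148 without (at least 8.86-fold lower, with 3 UMIs over the group as the limit that a count of 0 allows). Dapl1, a gene of naive cells too low to test, showed the same, with 0 against 50 UMIs (at least 7.77-fold lower). The embigin gene Emb fell (-1.91). H2-Aa (-2.41), H2-Eb1 (-3.30) and H2-Ab1 (-1.90), which present antigen to CD4 T cells, also fell. So did Cd74 (-2.00), Rarres2, Mt2, Malat1, Col3a1 and the hemoglobin genes Hbb-bs, Hba-a1 and Hba-a2. With barcodes carrying RNA of another cell type left out, H2-Aa (-0.82), Cd74 (-0.70) and Malat1 (-0.25) no longer passed, and Gzma was the only gene that fell. Ccr7 was therefore not called there, where 3 genes of the list of naive and stem-like genes could be tested. In thinned cells 0 genes of that list could be tested.

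Several genes that set the receptor-positive cells apart did not pass between cells with and without Havcr2. Tnfrsf9 was at 184 and 493 CPM against 129 and 206 (0.99, edgeR adjusted p = 0.304), Tnfrsf4 at 151 and 249 against 129 and 65.9 (1.24, adjusted p = 0.414), and Cxcr6 at 402 and 493 against 263 and 285 (0.68, adjusted p = 0.595). Klf2 was at 33.5 and 60.9 against 96.6 and 154 (-1.41, adjusted p = 0.372). Ifng went in opposite directions, at 268 against 440.2 in replicate 1 and at 1605 against 250 in replicate 2. The self-test at this size recovered 36 of 100 genes simulated with a log2 fold change of 2 and 1 of 100 with a change of 1, so such differences were mostly not detectable.

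**Figure D5:**
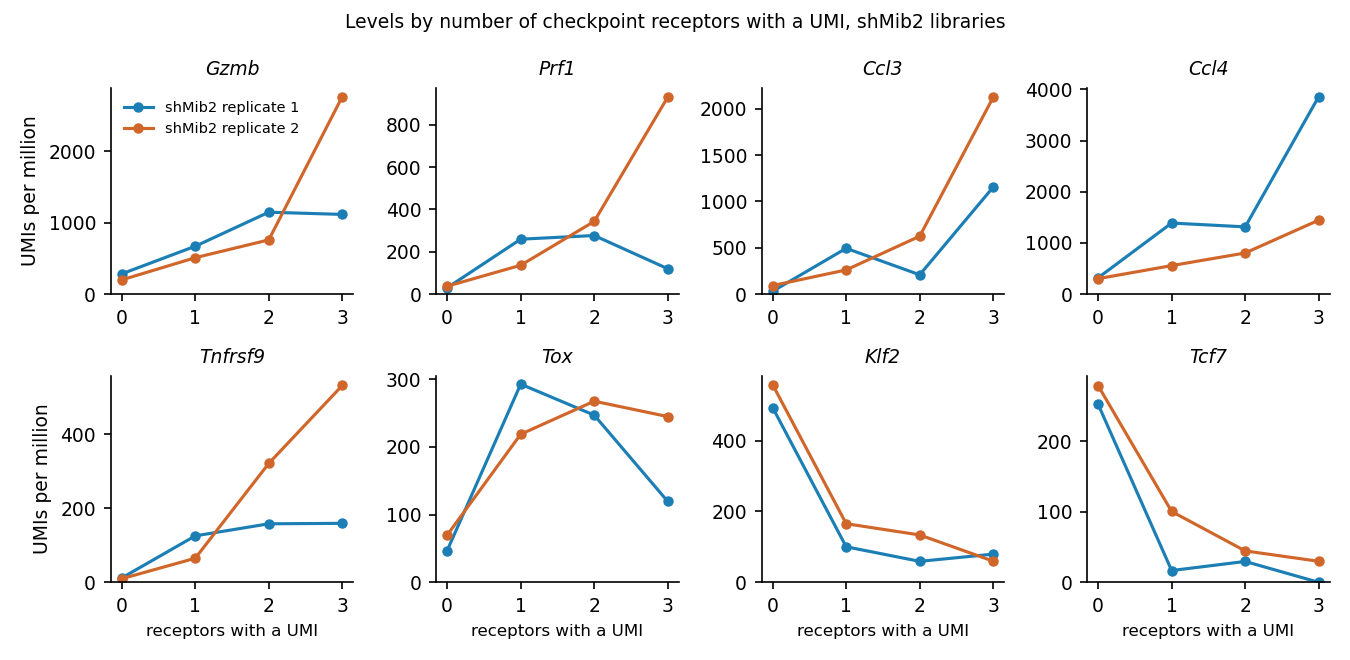
UMIs per 1000000 (CPM) of 8 genes in CD8 T cells of the shMib2 libraries by the number of receptors (0 to 3) with a UMI, 1 line per library. In replicate 2 Gzmb was at 198, 508, 758 and 2763, and the 3-receptor point of replicate 1 stands for 5 cells.

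By number of receptors detected, the steps were not alike for all genes. In shMib2 replicate 2, Gzmb was at 198, 508, 758 and 2763 CPM in cells with 0, 1, 2 and 3 receptors, and Tnfrsf9 at 9.68, 65, 321 and 531. In replicate 1, Gzmb was at 282, 669, 1145 and 1114. Klf2 already fell between 0 and 1 receptor, from 558 to 165 in replicate 2 and from 493 to 100.3 in replicate 1. Tox was at 219, 267 and 245 across 1, 2 and 3 receptors in replicate 2. These values are a description with no test, because the number of receptors detected also rises with depth, with median UMI counts of 2783, 3416 and 4654 in cells with 1, 2 and 3 receptors.

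Last, receptor-positive cells were compared between labels, which is the comparison of the study. No gene passed, and the shCtrl sum held 5 cells with 18239 UMIs in all. Of 4502 genes tested by edgeR on 3 sums, 0 passed (0%) and 337 had an unadjusted p under 0.05, 294 (6.53%) higher and 43 (0.955%) lower in shMib2, and DESeq2 called 1. The lone shCtrl sum is assumed to vary like the others. Simulated data of this size recovered none of 100 genes with a log2 fold change of 1 and none of 100 with a change of 2.

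The levels nearest to a call are given with 95% exact Poisson intervals, which cover counting error only. S100a6, a calcium-binding protein, was at 768 CPM (419.6 to 1288) in shCtrl, 3093 (2877 to 3320) in shMib2 replicate 1 and 3257 (3110 to 3410) in replicate 2 (edgeR adjusted p = 0.0552). Ccl5 was at 4660 (3723 to 5763), 8892 (8523 to 9272) and 8186 (7951 to 8426), and Gzmb at 164 (33.9 to 481), 910 (795 to 1038) and 1281 (1189 to 1378). Tnfrsf4 was at 713 (379.5 to 1219), 134 (92.3 to 188) and 130 (102 to 164). For these genes the shCtrl interval did not reach those of the shMib2 libraries. They were picked by their low p in this same comparison, so the separation of their intervals is no further evidence of a difference. With barcodes carrying RNA of another cell type left out, an alternative chosen after the data were seen, 3 shCtrl cells remained. The calls of that alternative, given in the closing section, rest on those 3 cells on the shCtrl side.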

How the data were processed

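Single-cell RNA of pooled tumors was measured in 3 libraries by droplet sequencing. Per the labels and file headers the authors deposited filtered gene-by-barcode matrices of UMI counts made with Cell Ranger 4.0.0 on mm10, with no normalization; no deposited annotation of cells was used. Groups came from the treatment label. The cells and gene lists were chosen with earlier results of these data known. UMI counts were summed per library and cell group and tested with edgeR 4.0.16 (TMM, filterByExpr, glmQLFTest, adjusted p under 0.05), with DESeq2 1.42.0 as an alternative, in R 4.3.3. Fold changes are log2 values fitted by edgeR, and levels are UMIs per 1000000 of the sum (CPM). Library was the block where both groups came from each library. Genes named are up to 12 per direction with the largest change, at a mean of 20 or more CPM and the same direction in every library, and up to 4 of each of 16 lists with the lowest p, without rule genes, ribosomal, mitochondrial, receptor segment and predicted genes and markers of other cells; other called members of a list, Acta2, Dapl1, Col3a1, marker genes and hemoglobin genes were named after their values were seen. Doublets were scored per library against simulated doublets (0.8% per 1000 barcodes). The fits were tested on simulated data: with changes of log2 2, 56 of 100 genes were recovered between receptor-positive and receptor-negative cells, and 6 of 100 at log2 1, with 1 false call among 2591 genes. Alternatives are in the closing section; a planned one and a few genes are not reported here.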

Additional observations from a re-analysis of the deposited data

How the results depend on the processing

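The ratio of the mean shMib2 share of receptor-positive cells over the shCtrl share was 2.21. It was 2.75 with at least 2 receptor UMIs, 3.12 with cells of another type's RNA left out (an alternative chosen after seeing the data) and 22.7 as a share of barcodes kept, and 2.06 to 2.36 without 1 shMib2 library. Receptor-positive against receptor-negative cells (123 higher, 249 lower) gave 50 and 129 by DESeq2, 23 and 62 of 842 genes in thinned cells, 82 and 129 of 2395 without receptor-negative cells carrying Ccr7 or Lef1 (also chosen after seeing the data), 86 and 162 with at least 50 UMIs over the sums, and 66 to 211 higher and 134 to 309 lower without 1 library. No replicate block gave 85 and 187, and the call of 12 of the 75 named genes was lost. None of those that could be tested changed direction in the 15 alternatives, but only 39 of the 75 could be tested in thinned cells and 56 without shMib2 replicate 2. Of those 39 genes, 14 lost their call in thinned cells, and of those 56, 13 lost it without shMib2 replicate 2. Thinned cells were grouped anew by the receptor UMIs left, so their groups differ from the main ones. With and without Havcr2 (5 higher, 13 lower), DESeq2 gave 2 and 0, thinned cells 2 and 0, at least 50 UMIs 16 and 23, no filter 13 and 24, predicted doublets removed 0 and 0, no replicate block 0 and 0, the strict cell filter (500 genes, 10% mitochondrial) 4 and 8, and cells of another type's RNA left out 4 and 1. Malat1 turned to 0.42 in thinned cells and Ifng ran from -0.77 without shMib2 replicate 2 to 2.66 without replicate 1. Between labels (0 and 0), DESeq2 gave 1 higher, thinned cells 4 higher, no filter 69 higher and 5 lower, predicted doublets removed 2 higher and 1 lower, and cells of another type's RNA left out 63 higher. The cause of these shifts was not tested. No paired analysis was possible between labels because shCtrl is 1 library. Leaving out 1 library left no residual degrees of freedom in the last 2 comparisons, so only fold changes were given there; shCtrl was never in the Havcr2 comparison.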
